A study of Mus musculus with 6 samples.

Results

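The 10 genes described here are a panel of neutrophil granule and receptor genes, S100a8, S100a9, Lcn2, Ngp, Mmp8, Retnlg, Mcemp1, Csf3r, Cxcr2 and Ly6g, measured in macrophages sorted from mouse ovarian tumors. They were chosen by name, with earlier results of these data known. All 10 were found among the 56980 genes of the expression table through their Ensembl identifiers. The samples were 3 libraries from wild-type C57BL/6 mice (WT TAM 1 to 3) and 3 from C5aR knockout mice on the C57BL/6 background (C5aR−/−, KO TAM 1 to 3). All were female, were bought at several weeks of age and received ID8 cells, a mouse epithelial ovarian cancer line, by intraperitoneal injection. Tumors were taken 2 months later, and live CD45+CD11b+Ly6G−F4/80+ cells were sorted as tumor-associated macrophages (TAM) for sequencing of poly(A) RNA. The knockout was in the whole animal, so neutrophils and all other cells of these mice lacked the receptor along with the macrophages. Nothing in the labels beyond the sample titles says that each library came from its own mouse, so p-values measure the spread between these samples.

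Neutrophils are short-lived granulocytes made in the bone marrow under G-CSF and drawn into inflamed tissue and tumors by chemokines that act on CXCR2. They carry their antimicrobial proteins in granules that are filled in sequence as the cell matures, and mature mouse neutrophils bear Ly6G on the surface. C5a, the ligand of C5aR, is itself a strong attractant and activator of neutrophils.

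Levels are given in TPM, a share of all transcripts that is corrected for gene length and adds up to the same total in each library. TPM do not show how deeply a library was sequenced, and that depth is unknown here. Differences are KO minus WT in log2(TPM + 1). Adding 1 makes the difference of a scarce gene look smaller than it is. C5ar1, which encodes the deleted receptor, checked the labels: it stood at 86.5, 37.3 and 16.2 TPM in WT TAM 1, 2 and 3 and at 0.38, 0.11 and 0.05 TPM in KO TAM 1, 2 and 3 (log2 difference -5.04 ± 0.56 SE, limma adjusted p = 0.0666). All 3 WT libraries were above all 3 KO libraries.

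The gate was also checked against its own genes. Ptprc (CD45) stood at 67.5, 77.0 and 60.3 TPM in WT TAM 1, 2 and 3 and at 102.5, 59.9 and 29.4 TPM in KO TAM 1, 2 and 3. Itgam (CD11b) was at 273, 101 and 49.2 TPM in the WT libraries and 105, 93.7 and 35.6 TPM in the KO libraries, and Adgre1 (F4/80) at 114, 45.8 and 25.4 TPM against 91.1, 40.1 and 27.9 TPM. The groups overlapped for all 3 genes, and the libraries differed widely within each group. Macrophage genes were abundant throughout, but the libraries also held keratins, hemoglobin and B cell transcripts, and KO TAM 1 stood apart with 26560 TPM in hemoglobin and other erythroid genes. Although Ly6G+ cells were gated out, transcripts of neutrophil genes were present in every library.

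The neutrophil genes were lower in the KO libraries than in the WT libraries. Together the 10 genes took up 1113, 2536 and 771 TPM in WT TAM 1, 2 and 3 and 254, 442 and 39.0 TPM in KO TAM 1, 2 and 3, a mean of 1473 ± 936 TPM against 245 ± 202 TPM (SD, 3 libraries each). The 2 groups did not overlap in this sum, which was highest in WT TAM 2 and lowest in KO TAM 3. Of the 10 genes, 9 passed the filter on low values, which asked for 1 TPM or more in 3 or more libraries. In limma 8 of the 9 were called lower in KO, where a call meant a change of 2-fold or more and an unadjusted p under 0.05. By the same rule 2.84% of the 14776 tested genes were called lower (419 genes) and 2.13% higher (314 genes). In 8 of the 10 genes all WT libraries were above all KO libraries, against 12.5% of tested genes (1845 genes). The members were chosen with earlier results of these data known, so these contrasts with all tested genes are no independent test. After Benjamini-Hochberg adjustment limma called 0 members and 0 other genes (0% of tested genes), while 2133 genes, whatever their fold change, were under 0.05 before adjustment. A bulk library cannot tell which of the sorted cells these transcripts came from. Nor can it tell fewer neutrophils among the sorted cells from less of these transcripts per cell.

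The median log2 difference was -1.88 over the 10 genes and -0.05 over all tested genes, and 10 of 10 members had a difference below 0 against 55.5% of tested genes. Each of the 9 tested members was above 1 TPM in all 3 WT libraries and so could pass the filter through the WT group alone, while Ly6g, the scarcest, did not pass. The members' order across libraries was also shared: WT TAM 2 had the highest level of 8 of the 10 genes (15.3% of tested genes), and KO TAM 3 had the lowest of all 10, tied with KO TAM 1 at 0 for Ly6g (28.2% of tested genes, ties included). The number of members called fell from 8 to 5 without WT TAM 1, to 5 without WT TAM 2 and to 5 without KO TAM 3. In these fits 507 of 818, 323 of 567 and 337 of 660 called genes were lower in KO, in the same order. Without both WT TAM 2 and KO TAM 3, left out after their values were seen, 4 members were called: S100a8, S100a9, Cxcr2 and Lcn2, beside 529 of all tested genes, 266 of them lower. Over all tested genes, 733 were called at the unadjusted rule, which became 1266 without KO TAM 1. The adjusted rule then called 356 genes, none of them a member, and it called 1 gene without KO TAM 2 and 3 genes without KO TAM 3.

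**Figure D1:**
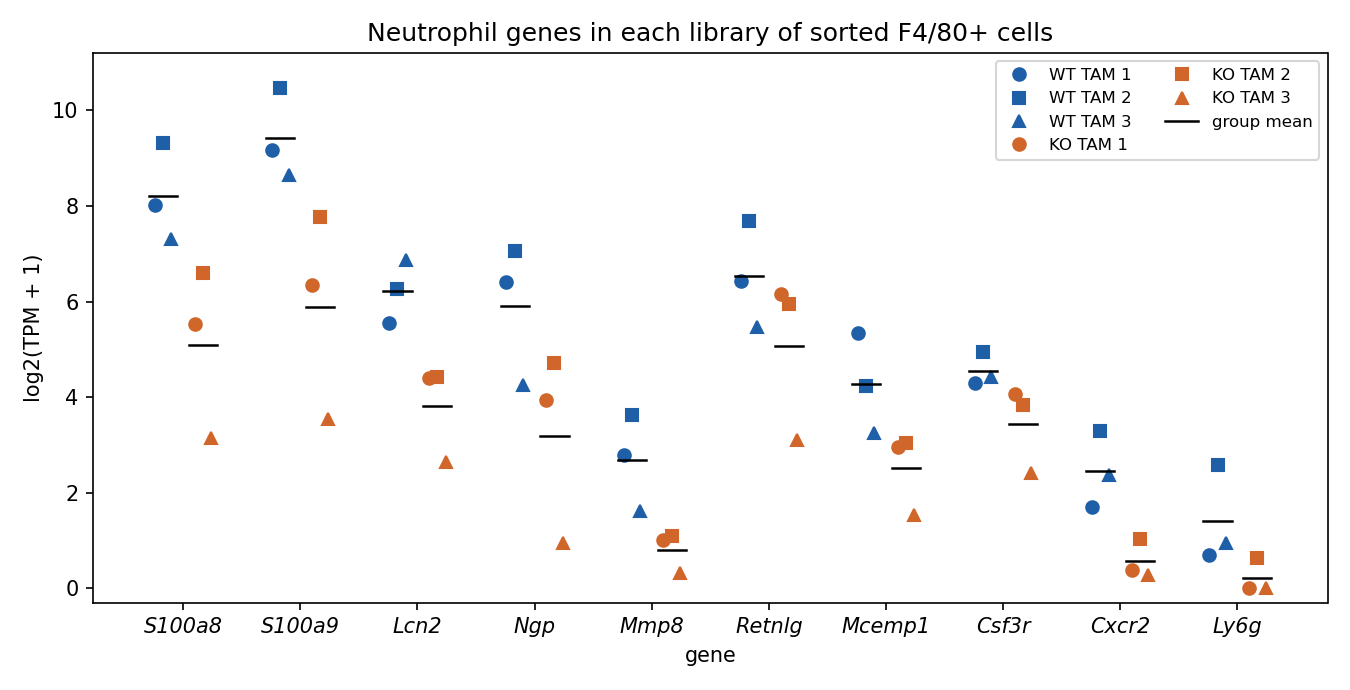
Level of each of the 10 neutrophil genes (x axis) as log2(TPM + 1) (y axis) in the 3 WT libraries (blue) and the 3 KO libraries (orange), with a horizontal bar at each group mean. All WT points lie above all KO points except for Ngp and Retnlg, and the triangle of KO TAM 3 is the lowest KO point, tied at 0 for Ly6g.

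S100a8 and S100a9 encode the subunits of calprotectin, a calcium-binding and metal-sequestering protein that fills the neutrophil cytosol and is released as an alarm signal. S100a8 stood at 259, 641 and 156 TPM in WT TAM 1, 2 and 3 and at 45.1, 96.4 and 7.9 TPM in KO TAM 1, 2 and 3. The lowest WT library was above the highest KO library, and KO TAM 3 was far below the other two KO libraries. Its log2 difference was -3.12 ± 0.92 (SE), with an unadjusted p of 0.0122 and an adjusted p of 0.224 in limma. S100a9, the most abundant member in the mean over the libraries, stood at 572, 1409 and 401 TPM in the WT libraries and 80.3, 216 and 10.7 TPM in the KO libraries in the same order. The groups did not overlap here either, with WT TAM 2 the highest and KO TAM 3 the lowest. The log2 difference was -3.54 ± 1.05, with an unadjusted p of 0.0126 and an adjusted p of 0.224. Both genes kept the call whichever single library was left out. Without KO TAM 3 the differences were -2.15 for S100a8 and -2.37 for S100a9, and without KO TAM 2 they were -3.88 and -4.48.

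The ratio of S100a9 to S100a8 was 2.21, 2.20 and 2.56 in WT TAM 1, 2 and 3 and 1.78, 2.24 and 1.36 in KO TAM 1, 2 and 3, and the groups overlapped. The 2 genes made up 74.7%, 80.9% and 72.3% of the summed TPM of the 10 genes in the WT libraries and 49.4%, 70.7% and 47.7% in the KO libraries. That share was lower in each KO library than in each WT library. S100a9 and S100a8 had the largest log2 differences of the members, so the lower share restates those differences. The 2 genes are neighbors on chromosome 3 in the GRCm38 build, S100a8 at chr3:90668978-90670035 on the + strand and S100a9 at chr3:90692632-90695721 on the − strand, 22596 bases apart. Of the 10 other S100 genes listed from this cluster, 8 were tested, 0 were called lower and 1, S100a3, was called higher (log2 difference 2.61 ± 0.77, unadjusted p = 0.0125, adjusted p = 0.224), and their median was 0.09. The most abundant in the mean over the libraries was S100a11, at 1644, 1769 and 2203 TPM in WT TAM 1, 2 and 3 and 1667, 1833 and 1541 TPM in KO TAM 1, 2 and 3 (log2 difference -0.15 ± 0.18), followed by S100a6, S100a10 and S100a4. S100a5 was listed at 0 in every library. The summed TPM of these 10 genes was 3593, 3512 and 4933 in the WT libraries and 3849, 6082 and 4721 in the KO libraries, so the groups overlapped.

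Among the proteins of the later granules, Lcn2 encodes lipocalin-2, which binds bacterial siderophores and withholds iron. Its level was 45.7, 76.1 and 117 TPM in WT TAM 1, 2 and 3 and 20.1, 20.6 and 5.2 TPM in KO TAM 1, 2 and 3. The groups did not overlap, and Lcn2 differed from the S100 genes in having its highest level in WT TAM 3. Its log2 difference was -2.41 ± 0.56, with the smallest unadjusted p among the members (0.00391, adjusted p = 0.156). Lcn2 is also made by epithelial cells and activated macrophages. Left out one library at a time, its difference ran from -2.75 without WT TAM 1 to -1.82 without KO TAM 3, and it kept the call in all 6 fits. The gene lies at chr2:32384633-32388252.

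Ngp, neutrophilic granule protein, is a cathelicidin-related protein of the secondary granules. It stood at 84.0, 132 and 18.0 TPM in WT TAM 1, 2 and 3 and at 14.3, 25.1 and 0.93 TPM in KO TAM 1, 2 and 3. The groups overlapped, since KO TAM 2 was above WT TAM 3. Its log2 difference was -2.71 ± 1.11, with an unadjusted p of 0.046 and an adjusted p of 0.337. Ngp was not called without WT TAM 1 (-2.46, unadjusted p = 0.12), WT TAM 2 (-2.13, unadjusted p = 0.137) or KO TAM 3 (-1.59, unadjusted p = 0.103). With all 6 libraries it was also not called with a pseudocount of 0.1 (unadjusted p = 0.055), no filter (0.0578), median-of-ratios scaling (0.0525) or no trend in the limma fit (0.0524). Without WT TAM 3 the difference was -3.54. Ngp lies at chr9:110419747-110423012.

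Mmp8 encodes neutrophil collagenase, a matrix protease of the secondary granules. It was measured at 5.92, 11.3 and 2.06 TPM in WT TAM 1, 2 and 3 and at 1.0, 1.14 and 0.24 TPM in KO TAM 1, 2 and 3. The groups did not overlap, although WT TAM 3 and KO TAM 2 were less than 1 TPM apart. The log2 difference was -1.87 ± 0.53 (unadjusted p = 0.00992, adjusted p = 0.21), and the call held without any single library, from -2.40 without WT TAM 3 to -1.40 without WT TAM 2. With a pseudocount of 0.1 the difference was -2.77. Mmp8 lies at chr9:7558456-7568485, on the same chromosome as Ngp. Retnlg, a resistin-like secreted protein of myeloid cells, stood at 85.0, 205 and 43.0 TPM in the WT libraries and 70.3, 60.7 and 7.6 TPM in the KO libraries. KO TAM 1 and KO TAM 2 were above WT TAM 3, so the groups overlapped. Its log2 difference was -1.46 ± 0.92, with an unadjusted p of 0.158 and an adjusted p of 0.515, and it was the one tested member that was not called. Without KO TAM 3 the difference was -0.47, and without both WT TAM 2 and KO TAM 3 it was 0.11. Retnlg was called with the replicate number as a block (-1.46) and with scaling to Ptprc (-1.22), the last chosen after seeing the data. Retnlg lies at chr16:48872621-48874496.

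Relative to S100a9, Retnlg was higher in the KO libraries: the ratio was 0.149, 0.146 and 0.107 in WT TAM 1, 2 and 3 and 0.875, 0.281 and 0.709 in KO TAM 1, 2 and 3, with no overlap. Csf3r to S100a9 showed the same arrangement, at 0.0327, 0.0211 and 0.0509 in the WT libraries and 0.197, 0.0611 and 0.404 in the KO libraries. Among the tested members S100a9 had the largest log2 difference (-3.54), and Retnlg (-1.46) and Csf3r (-1.12) had the smallest. These ratios therefore restate those differences and are no separate result. The share of all genes with such a ratio to S100a9 was not computed. Lcn2 to S100a9 was 0.0798, 0.054 and 0.291 in WT TAM 1, 2 and 3 and 0.25, 0.0952 and 0.485 in KO TAM 1, 2 and 3, and here the groups overlapped. They also overlapped for Ngp to S100a9, at 0.147, 0.0934 and 0.0449 against 0.178, 0.116 and 0.0868. Ngp was also set against its fellow secondary granule genes Camp and Ltf. Ngp to Camp was 3.53, 2.86 and 2.99 in WT TAM 1, 2 and 3 and 2.28, 2.37 and 3.72 in KO TAM 1, 2 and 3, and Ngp to Ltf was 3.44, 3.45 and 2.32 against 3.63, 2.97 and 2.66. In both ratios the groups overlapped.

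Mcemp1 encodes a membrane protein that is found in mast cells and is also expressed by neutrophils and monocytes. It stood at 39.3, 17.8 and 8.54 TPM in WT TAM 1, 2 and 3 and at 6.74, 7.26 and 1.91 TPM in KO TAM 1, 2 and 3. The groups did not overlap, and WT TAM 1 rather than WT TAM 2 was the highest. Its log2 difference was -1.76 ± 0.62 (unadjusted p = 0.0257, adjusted p = 0.282). The call was lost without WT TAM 1 (-1.23), without WT TAM 2 (-1.78) and without KO TAM 3 (-1.27). Mcemp1 lies at chr8:3665754-3669259.

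Csf3r encodes the G-CSF receptor, through which neutrophil production and survival are driven. Its level was 18.7, 29.8 and 20.4 TPM in WT TAM 1, 2 and 3 and 15.8, 13.2 and 4.33 TPM in KO TAM 1, 2 and 3. The groups did not overlap, but the lowest WT library (WT TAM 1) was close to the highest KO library (KO TAM 1). The log2 difference was -1.12 ± 0.45, the smallest of the tested members, with an unadjusted p of 0.043 and an adjusted p of 0.331. It was not called without WT TAM 1 (-1.24), WT TAM 2 (-0.92), WT TAM 3 (-1.19) or KO TAM 3 (-0.61). With all 6 libraries the call was also lost with no filter (unadjusted p = 0.052), with median-of-ratios scaling (0.051) and with scaling to Ptprc (-0.89, unadjusted p = 0.142), the last chosen after seeing the data. Csf3r lies at chr4:126024550-126044440. Cxcr2 encodes the receptor by which neutrophils follow CXC chemokines, and it was at 2.23, 8.8 and 4.2 TPM in the WT libraries and 0.3, 1.04 and 0.21 TPM in the KO libraries. All WT levels were above all KO levels, with WT TAM 2 the highest. The log2 difference was -1.89 ± 0.45 (unadjusted p = 0.00436, adjusted p = 0.162), and it kept the call in all 6 fits without a library, from -2.27 without WT TAM 1 to -1.47 without WT TAM 2. With a pseudocount of 0.1 the difference was -3.1. Cxcr2 lies at chr1:74153989-74161246.

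Ly6g encodes the surface antigen that the sort used to remove neutrophils. It was the scarcest of the 10 genes, at 0.62, 4.94 and 0.92 TPM in WT TAM 1, 2 and 3 and at 0, 0.56 and 0 TPM in KO TAM 1, 2 and 3. WT TAM 2 alone was well above the rest, and WT TAM 1 was barely above KO TAM 2. Ly6g did not pass the filter and was not tested in the main fit; the plain log2 difference was -1.19. The exact two-sided permutation test gave a p of 0.1 for Ly6g, the smallest that 3 libraries against 3 allow. It also gave 0.1 for the other 7 genes whose groups did not overlap, 0.2 for Ngp and 0.4 for Retnlg. Of the tested genes, 21.3% had groups that did not overlap, in either direction. Ly6g (chr15:75155240-75159126) belongs to a family of closely related genes, so reads may be divided between copies. Of 7 other Ly6 genes, 5 were tested and 2 were called lower, Ly6c2 (log2 difference -1.41 ± 0.49) and Ly6e (-1.27 ± 0.48), with a median of -1.30 and 0 called higher. Their summed TPM was 1142, 1194 and 2388 in the WT libraries and 873, 813 and 312 in the KO libraries, mostly Ly6e, followed by Ly6a, Ly6d and Ly6c2. Ly6e was not called without WT TAM 3 (-0.94), without KO TAM 3 (-0.76) or with the replicate number as a block (-1.27). Ly6c2 lost its call without WT TAM 2 (-1.40), WT TAM 3 (-1.25), KO TAM 2 (-1.25) or KO TAM 3 (-0.99).

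The remaining neutrophil genes were read as 3 lists. In these and the lists that follow, the most abundant genes, or those said to lead a list, are those with the highest mean TPM over all 6 libraries, and the order can differ within a group. Of the 50 genes of the 3 lists in the table, 42 were tested, 13 were called lower and 0 higher, with a median log2 difference of -1.20. The share called lower was 31% against 2.84% of all tested genes. These lists too were chosen with earlier results of these data known, so this contrast is no independent test. Ties included, 38 of the 42 had their lowest level in KO TAM 3, against 28.2% of all tested genes. Primary granules hold the proteases and peroxidase made by promyelocytes. Of 7 listed genes 6 were in the table and tested, and 2 were called lower, Ctsg (cathepsin G, log2 difference -1.72 ± 0.61) and Serpinb1a (-1.26 ± 0.37). Serpinb1a encodes an inhibitor of neutrophil proteases and is not itself a protease or peroxidase gene. The list's median was -1.39, and its summed TPM was 169, 157 and 86.4 in WT TAM 1, 2 and 3 and 65.8, 85.7 and 17.8 in KO TAM 1, 2 and 3. Its most abundant genes were Serpinb1a, Prtn3, Mpo and Elane. Prtn3 (proteinase 3), at 77.6, 44.7 and 11.7 TPM in the WT libraries and 26.2, 36.7 and 3.96 TPM in the KO libraries, overlapped between groups (-1.05 ± 0.93). Mpo (-1.75 ± 0.83) and Elane (-1.52 ± 0.67) also overlapped and were not called. Ctsg was not called without WT TAM 1 (-1.70), WT TAM 2 (-1.24) or KO TAM 3 (-1.25), nor was Serpinb1a without KO TAM 3 (-0.81).

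Of the 16 secondary and tertiary granule genes, 13 were tested, 4 were called lower and 0 higher, with a median of -1.20. The 4 were Chil1 (a chitinase-like protein, -2.35 ± 0.34), Hp (haptoglobin, -2.41 ± 0.63), Ltf (lactoferrin, -2.37 ± 0.82) and Pglyrp1 (a peptidoglycan recognition protein, -1.84 ± 0.48). Ltf lost the call without WT TAM 1 (-2.22), WT TAM 2 (-1.91) or KO TAM 3 (-1.59). Camp, the cathelicidin gene, was at 23.8, 46.0 and 6.04 TPM in WT TAM 1, 2 and 3 and 6.25, 10.6 and 0.25 TPM in KO TAM 1, 2 and 3 (-2.10 ± 0.99, unadjusted p = 0.074). Camp was called without WT TAM 3 (-2.86) or KO TAM 2 (-2.74) and with the replicate number as a block. Scaling to Ptprc, chosen after seeing the data, also gave it a call. Its difference was -1.14 without KO TAM 3 and -1.49 without WT TAM 2. The list's most abundant gene, Lyz2 (lysozyme), is also a macrophage gene and overlapped between groups (-0.10 ± 0.67), so the list was summed with and without it. With Lyz2 the sum was 6157, 2628 and 1695 TPM in the WT libraries and 4942, 2901 and 1175 TPM in the KO libraries. Without Lyz2 it was 346, 335 and 286 TPM against 154, 122 and 24.2 TPM. Because Lyz2 was left out partly for its overlap, this sum is no test of whether the groups differ. Hp, which is also in the monocyte list, was kept, at 81.9, 83.6 and 209 TPM in the WT libraries and 18.6, 48.8 and 8.95 TPM in the KO libraries. After Lyz2 the most abundant were Hp, Padi4 and Ceacam1.

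Of the 28 surface and activation genes, 23 were tested, 7 were called lower and 0 higher, with a median of -0.92. The largest difference was that of Hdc, histidine decarboxylase, which mast cells also express (-3.47 ± 0.41). The others were Slpi (a protease inhibitor, -2.56 ± 0.69), Stfa2l1 (-2.55 ± 0.61) and Gm5483 (-2.33 ± 0.74) of the stefin A family, Acod1 (the itaconate-producing enzyme, -2.37 ± 0.48), Wfdc21 (-1.96 ± 0.77) and Asprv1 (-1.92 ± 0.44). The stefin A genes are near-identical copies, so the split of reads between them is uncertain. Gm5483 was not called without WT TAM 2 (-1.71) or KO TAM 3 (-1.77), and Wfdc21 was not called without WT TAM 1 (-1.73), WT TAM 2 (-1.39), KO TAM 1 (-2.06) or KO TAM 3 (-1.49), nor with a pseudocount of 0.1 (unadjusted p = 0.0545) or no filter (0.0533). The most abundant genes over the 6 libraries were Il1b, Ifitm1, Fcgr4 and Slpi, an order that held in neither group: the WT mean of Hdc was above that of Fcgr4 (70.7 against 59.4 TPM), and the KO mean of Clec4d was above that of Slpi (35.8 against 18.8 TPM). Il1b stood at 136, 96.4 and 93.5 TPM in WT TAM 1, 2 and 3 and 90.0, 174 and 55.0 TPM in KO TAM 1, 2 and 3 (-0.17 ± 0.40). Ifitm1 had a difference of -1.38 ± 0.58 and was called without KO TAM 2 (-1.97) and with the replicate number as a block. Its difference was -0.95 without WT TAM 2 and -0.97 without KO TAM 1. Fcgr4 was above WT in all 3 KO libraries, at 67.6, 50.7 and 59.9 TPM against 116, 102 and 84.0 TPM (0.75 ± 0.17). Il1b, Ifitm1 and Fcgr4 are also expressed by monocytes and macrophages. The list summed to 898, 877 and 533 TPM in the WT libraries and 536, 621 and 245 TPM in the KO libraries, with the groups overlapping.

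Of 6 listed transcription factors of the neutrophil lineage, 4 were tested and 0 were called in either direction, with a median of 0.16, and Cebpe and Gfi1 did not pass the filter. Cebpd was closest to the rule, with a difference of -0.99 ± 0.22 (unadjusted p = 0.00286) and a fold change just under 2, and it was called with a pseudocount of 0.1 (-1.02, unadjusted p = 0.00291) and without WT TAM 2 (-1.16) or KO TAM 2 (-1.14). The most abundant was Spi1 (PU.1), which macrophages share, at 66.0, 41.2 and 32.7 TPM in WT TAM 1, 2 and 3 and 83.2, 48.0 and 33.0 TPM in KO TAM 1, 2 and 3 (0.19 ± 0.39), followed by Cebpd, Cebpb and Cebpa. The list summed to 184, 109 and 115 TPM in the WT libraries and 132, 126 and 140 TPM in the KO libraries.

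Ligands of the receptors were measured in the same cells. Of 7 genes, 5 were tested, 1 was called lower and 1 higher, and the median was -0.68. Cxcl5, a ligand of CXCR2, was the one called lower (-1.45 ± 0.57), at 1.04, 1.02 and 7.3 TPM in WT TAM 1, 2 and 3 and 0.07, 0.22 and 0.29 TPM in KO TAM 1, 2 and 3. Cxcl5 passed the filter through the WT libraries alone. It was not called without WT TAM 3 (-0.77), KO TAM 1 (-1.37), KO TAM 2 (-1.47) or KO TAM 3 (-1.51), nor with quantile normalization (-1.21, unadjusted p = 0.0772). Mif, a cytokine that can also bind CXCR2, was called higher, at 269, 295 and 324 TPM in the WT libraries and 642, 901 and 1236 TPM in the KO libraries (1.60 ± 0.25, adjusted p = 0.083). Cxcl2, the most abundant over the 6 libraries, was at 1512, 728 and 218 TPM against 1356, 573 and 164 TPM (-0.30 ± 0.93), below Mif in WT TAM 3, KO TAM 2 and KO TAM 3. Cxcl1 had a difference of -1.72 ± 0.97 that was called without KO TAM 1 (-2.57) and with the replicate number as a block. Scaling to Ptprc, chosen after seeing the data, also gave it a call. Its difference was -0.61 without KO TAM 3 and -1.29 without WT TAM 1. Csf3, which encodes G-CSF, and Ppbp did not pass the filter. The list summed to 2721, 1509 and 862 TPM in the WT libraries and 2522, 1703 and 1434 TPM in the KO libraries. The 6 genes for receptors of S100A8 and S100A9 were all tested and 0 were called, with a median of 0.18. Their summed TPM was 894, 601 and 527 in the WT libraries and 1061, 868 and 540 in the KO libraries, with Bsg (0.11 ± 0.17), Cd14 (0.55 ± 0.81), Cd36 and Ly96 the most abundant and Tlr4 at 0.22 ± 0.34.

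Markers of other cells were summed in the same libraries to see which moved with the neutrophil genes. Of 12 macrophage genes all were tested and 0 were called, with a median of 0.53. They summed to 8732, 3606 and 2550 TPM in WT TAM 1, 2 and 3 and 8815, 4993 and 2563 TPM in KO TAM 1, 2 and 3, led by Lyz2, C1qa, C1qb and C1qc, and without Lyz2 to 2920, 1314 and 1142 TPM against 4028, 2214 and 1412 TPM. WT TAM 2, highest in the neutrophil genes, was not the highest in macrophage genes, and the groups overlapped. Divided by Ptprc, the summed neutrophil genes were 16.5, 32.9 and 12.8 in the WT libraries and 2.48, 7.38 and 1.33 in the KO libraries, with no overlap. Divided by Adgre1, they were 9.73, 55.4 and 30.4 against 2.79, 11.03 and 1.40, where KO TAM 2 was above WT TAM 1.

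Of 12 monocyte genes, all tested, 3 were called lower (Nr4a1, Hp and Ly6c2) and 2 higher (Ace and Treml4), with a median of 0.02. Nr4a1 had a difference of -1.79 ± 0.53, Ace of 2.14 ± 0.52 and Treml4 of 1.75 ± 0.29, and Hp also stands in the granule list. The monocyte genes summed to 1098, 682 and 701 TPM in WT TAM 1, 2 and 3 and 966, 722 and 255 TPM in KO TAM 1, 2 and 3, led by Cd14, Nr4a1, Hp and Plac8 over the 6 libraries. The WT mean of Nr4a1 was above that of Cd14 (283 against 210 TPM), and the KO mean was below it (96.0 against 302 TPM). Mast cell genes were also lower in KO. Of 8 listed 7 were tested, 6 were called lower, among them Cpa3 (-3.59 ± 0.43) and Cma1 (-2.68 ± 0.40), and 1 higher, Kit (1.13 ± 0.18), with a median of -3.47. Kit had the highest mean over the 6 libraries, but Hdc was above it in all 3 WT libraries, and Kit was not called without KO TAM 3 (0.97). Mast cell genes summed to 172, 170.4 and 200.4 TPM in the WT libraries and 68.5, 80.7 and 90.1 TPM in the KO libraries, and Mcpt4 was listed at 0 in KO TAM 2 and KO TAM 3.

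Of 7 eosinophil genes 3 were tested, with Prg2 lower (-1.10 ± 0.32) and Ear2 higher (2.96 ± 0.38), a median of -0.13 and sums of 11.4, 13.95 and 5.99 TPM in WT TAM 1, 2 and 3 and 38.7, 31.1 and 16.4 TPM in KO TAM 1, 2 and 3. Ear2 had the highest mean over the 6 libraries, but Prg2 was above it in all 3 WT libraries. Prg2 lost its call without WT TAM 2 (-0.82), and the eosinophil peroxidase gene Epx was listed at 0 in all KO libraries and was below 1 TPM in all WT libraries. The 7 B cell genes were tested and 0 were called, with a median of -1.02 and sums of 565, 478 and 104 TPM in the WT libraries and 501, 193 and 39.6 TPM in the KO libraries, led by Ighm and Cd79a. The 7 T cell genes, led by Trac and Cd3g, had 0 called, a median of -0.22 and sums of 28.2, 65.0 and 103 TPM against 69.0, 55.8 and 24.1 TPM. The 8 epithelial and ID8 genes, led by Krt19 and Krt8 over the 6 libraries, had 0 called, a median of -0.10 and sums of 2391, 2339 and 2670 TPM against 2873, 2789 and 2289 TPM. Of 6 erythroid genes 5 were tested and 0 were called, with a median of 0.42 and sums of 2526, 7262 and 361 TPM against 26560, 333 and 1227 TPM, mostly Hbb-bs and Hba-a2, which belong to near-identical gene pairs. KO TAM 3 had the lowest sum of the 6 libraries for the B cell, T cell, monocyte, epithelial and other Ly6 lists and the lowest Ptprc, as it had for the 10 neutrophil genes, but not for the macrophage, mast cell, eosinophil or erythroid lists. Counted by gene, ties included, it was lowest for 6 of 8 mast cell and 6 of 7 eosinophil genes. That count was 1 of 12 for macrophage and 0 of 6 for erythroid genes. In KO TAM 3, Kit held 85.4 of the 90.1 TPM of the mast cell sum, and Ear2 held 14.6 of the 16.4 TPM of the eosinophil sum. The part that other cells or RNA from them had in the neutrophil values was not tested.

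**Figure D2:**
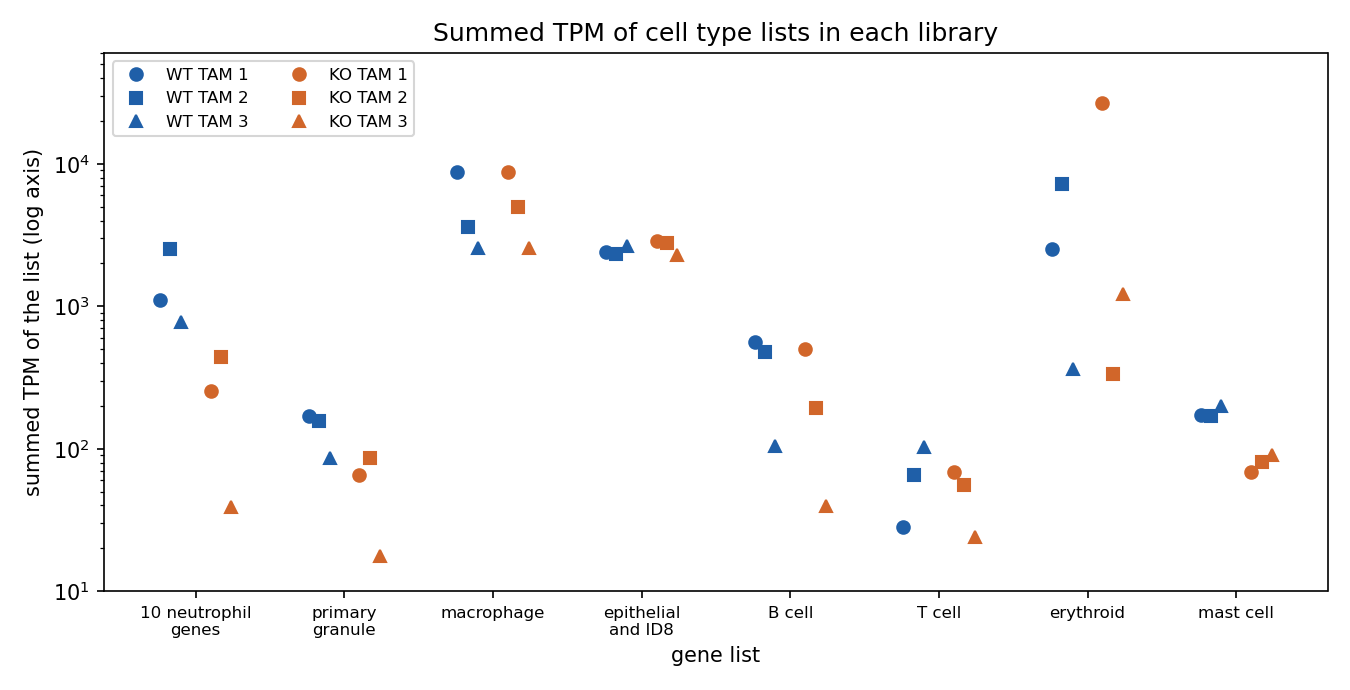
Summed TPM (y axis, log scale) of the 10 neutrophil genes and of 7 other gene lists (x axis) in each WT library (blue) and KO library (orange). The neutrophil sum lies between 771 and 2536 TPM in the WT libraries and between 39.0 and 442 TPM in the KO libraries, the mast cell sum also separates the groups, and the macrophage, epithelial, B cell, T cell and erythroid sums overlap.

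The genes whose pattern over the 6 libraries was most like that of S100a9 were searched among 11185 tested genes outside the panel with a mean of at least 5 TPM. The 5 nearest by Pearson's r on the log2(TPM + 1) scale were Rtn3 (0.993), Adgrg1 (0.989), E130308A19Rik (0.989), Etfdh (0.988) and Me2 (0.987). Their levels moved far less than S100a9: Rtn3 stood at 136, 144 and 136 TPM in WT TAM 1, 2 and 3 and 121, 132 and 106 TPM in KO TAM 1, 2 and 3, a log2 difference of -0.22. The other 4 had differences of -0.59, -0.39, -0.51 and -0.77 in the order named. In all, 78 of the 11185 genes had an r of at least 0.95. Among the tested members, S100a8 had an r of 0.997 with S100a9, Ngp 0.958 and Csf3r 0.945, and Mcemp1 had the lowest at 0.85. Ly6g was not tested and was not part of this comparison. These correlations describe 6 libraries that share the difference between the groups.

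Because S100a8, S100a9 and Ngp moved together, a stretch before the annotated gene start of each is shown. RefSeq promoter windows (GRCm38.p6) matched 10 of 10 members, and the 250 bases before each start were searched on both strands for 8 short patterns, of which 2 are marked here, chosen after all had been searched. TTGCNNAA, a core of C/EBP sites, was in 6 of the 10 members (Lcn2, Ly6g, Mmp8, Ngp, Retnlg and S100a9) and in 9.56% of 32851 windows. AGGAAGT, a core of ETS sites as bound by PU.1, was in 3 (Ly6g, Mmp8 and S100a8) and in 7.69% of windows. The other 6 patterns were TTNNGNAA, in 7 members and 36.8% of windows, GGAAGT, in 5 and 19.7%, AGGAAG, in 7 and 29.5%, TTTCCT, in 6 and 25.4%, GAGGAA, in 6 and 23.3%, and TATAAA, in 2 and 12.4%. GGAAGT and AGGAAG both lie within AGGAAGT, and each match to TTGCNNAA is also a match to TTNNGNAA on the opposite strand. A member was counted if any of its windows held the pattern, while the percentages are of single windows. The sequences below run 5′ to 3′ along the gene and stop before the annotated gene start. Matches to TTGCNNAA and AGGAAGT are in capitals, which describe the letters and show no binding. Counted from the RefSeq start, the sequences cover positions -250 to -94 for S100a8, -250 to -1 for S100a9 and -250 to -62 for Ngp. The rest of the searched window, nearer the RefSeq start, is not shown for S100a8 and Ngp.
S100a8 (chr3:90668821-90668977, + strand): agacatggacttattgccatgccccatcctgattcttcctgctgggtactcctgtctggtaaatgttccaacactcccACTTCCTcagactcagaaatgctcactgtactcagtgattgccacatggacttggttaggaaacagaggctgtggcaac
S100a9 (chr3:90695722-90695971, - strand): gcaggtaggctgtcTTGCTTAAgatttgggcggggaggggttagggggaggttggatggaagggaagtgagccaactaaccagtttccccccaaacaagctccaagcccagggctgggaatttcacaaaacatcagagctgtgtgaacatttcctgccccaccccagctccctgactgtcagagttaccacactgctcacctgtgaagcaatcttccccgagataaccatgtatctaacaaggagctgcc
Ngp (chr9:110419558-110419746, + strand): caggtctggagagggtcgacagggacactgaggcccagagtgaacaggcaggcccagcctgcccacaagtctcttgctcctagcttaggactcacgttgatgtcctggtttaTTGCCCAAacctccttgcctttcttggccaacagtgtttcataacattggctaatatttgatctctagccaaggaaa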

How the data were processed

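The deposited table gives TPM per gene for 3 WT and 3 KO libraries, made by the authors from reads of poly(A) RNA, and the authors' mean of each group, which was not used. The submitters' processing notes name fastp, HISAT2, StringTie, RSEM, DESeq2 and the mm10 genome without versions, and the study's methods name FPKM, but the deposited columns each add up to 1000000, as TPM do. Per the study's methods, fastp trimmed the reads, HISAT2 mapped them, StringTie assembled the transcripts of each sample, gffcompare merged the assemblies and StringTie estimated FPKM. How the TPM were then made is not given in the sources used here. The study's legends give more mice per group than the libraries analysed here.

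Symbols were matched to Ensembl identifiers (52073 of 56980 genes), and coordinates came from GENCODE M21 (GRCm38, the same assembly as mm10). The 14776 genes that reached 1 TPM in 3 or more libraries were compared between KO and WT on log2(TPM + 1) by limma 3.58.1 (R 4.3.3), with the trend option and Benjamini-Hochberg adjustment over all tested genes. A gene could pass this filter through the 3 libraries of a single group. The fitting step was tested on simulated data with the same spread for all genes, narrower than that of the members, and with changes only in more abundant genes. That test does not show how the fit behaves for scarce genes or for spreads as wide as the members'. Count tests were not used, since TPM are not counts. Single genes were also compared by an exact permutation test in scipy 1.17.1. Tables came from pandas 2.3.3 and numpy 2.4.6 under Python 3.11.15, and plots from matplotlib 3.10.9. The promoter sequences came from RefSeq.

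The named genes were the 10 members, C5ar1, Ptprc, Itgam and Adgre1, up to 4 of the most abundant genes of each list, and the 5 genes most like S100a9 with a mean of at least 5 TPM. Other genes, named because they were called, were near a threshold or were listed at 0, were chosen after their values were seen. The members and lists were chosen with earlier results of these data known. The alternatives tried were no filter, a filter at 5 TPM, a pseudocount of 0.1, quantile and median-of-ratios scaling, no trend, the replicate number as a block and leaving out each library. Scaling to Ptprc and leaving out 2 libraries together were added after seeing the data. Azu1 is not in the symbol table and was not analysed here.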

Additional observations from a re-analysis of the deposited data

How the results depend on the processing

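All 9 tested members kept a negative log2 difference under every alternative except Retnlg, which was 0.11 without both WT TAM 2 and KO TAM 3, an alternative chosen after seeing the data, under which 4 members were called. The number of members called at the unadjusted rule ranged from 5 to 8 when 1 library was left out, and was 7 with a pseudocount of 0.1, 6 with no filter, where Ly6g was tested and not called, 6 of 7 tested at 5 TPM, 8 with quantile normalization, 6 with median-of-ratios scaling and 7 without the trend. Over all genes, the unadjusted rule called 475 genes (274 lower in KO) with the filter at 5 TPM, where fewer genes were tested, and from 567 to 1266 without 1 library. With a pseudocount of 0.1 it called 919 genes (528 lower), with no filter 735 (418 lower) and without the trend 726 (415 lower). The adjusted rule called 2 genes without the trend, and from 0 to 356 without 1 library. The cause of these shifts was not tested.

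Scaling to Ptprc, added after seeing the data, called 83 genes at the adjusted rule, among them S100a8, S100a9 and Ngp, and moved the median of all genes from -0.05 to 0.2. Dividing by a single gene puts its own spread, from 29.4 TPM in KO TAM 3 to 102.5 TPM in KO TAM 1, into every other gene. Ngp, whose groups overlapped, had an adjusted p of 0.337 in the main limma fit. The calls after this scaling therefore do not show that the members differ once leukocyte content is allowed for. At the unadjusted rule it ended the calls of Csf3r, Serpinb1a, Ly6c2, Ly6e and Prg2 and gave calls to Retnlg, Camp and Cxcl1. Without both WT TAM 2 and KO TAM 3, Mmp8 and S100a3 also lost their calls, which no single library had ended. Of the genes called at the unadjusted rule, 419 of 733 were lower in KO, against 305 of 840 with scaling to Ptprc; quantile normalization gave 371 of 757 and median-of-ratios scaling 380 of 739. The median-of-ratios sums of the members were 1158, 2437 and 723 in WT TAM 1, 2 and 3 and 259, 447 and 39.3 in KO TAM 1, 2 and 3. With the replicate block, 9 members and 811 genes (467 lower in KO) were called at the unadjusted rule and 0 genes at the adjusted rule. Ly6e lost its call, while Retnlg, Prtn3, Camp, Ifitm1 and Cxcl1 gained one. The deviations of same-numbered libraries correlated at 0.19, -0.01 and 0.27, and WT TAM 1 and WT TAM 3, but not WT TAM 2, correlated best with their own number. Not every pair was over 0.1 and the labels do not link the numbers, so the libraries were treated as unpaired. In both groups the macrophage sums were highest in the library numbered 1 and lowest in that numbered 3. The members' sums were highest in the library numbered 2 and lowest in that numbered 3, also in both groups. What the numbers stand for cannot be told from these data.

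Of 58 genes with a log2 difference under 862 combinations of gene and alternative, 756 kept direction and call, 64 lost a call, 16 gained one and 26 changed sign, all in genes that were not called. Over the fits without 1 library, the difference ran from -0.68 to 0.2 for Ptprc, -1.22 to 0.0 for Itgam, -0.62 to 0.45 for Adgre1, -0.57 to 0.47 for Lyz2, -0.6 to 0.22 for Il1b, -1.06 to 0.5 for Cxcl2, -0.16 to 0.49 for Spi1, -0.03 to 1.27 for Cd14 and -0.03 to 0.24 for Bsg. Without both WT TAM 2 and KO TAM 3 it was 0.29 for Ptprc, 0.16 for Adgre1, 0.02 for Prtn3, 0.35 for Lyz2, 0.15 for Il1b and 0.62 for Cxcl2. Scaled to Ptprc it was 0.13 for Adgre1, 0.17 for Lyz2, 0.1 for Il1b, 0.12 for S100a11 and 0.05 for Rtn3. With a pseudocount of 0.1 it was -3.27 for Asprv1, -3.51 for Gm5483, -3.19 for Wfdc21 and -2.93 for Cxcl5. The depth of the libraries is unknown, so no counting error can be given for low values such as those of Ly6g.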
